A study of Mus musculus with 4 samples.

Results

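Conditional knockout (cKO) of Tbx1 was compared with wild type (WT) in sorted stem cells of the mouse hair follicle bulge, gene by gene and by functional group. All 4 arrays of the study entered the comparison, 2 of each genotype. Each gene was read from the probe set with its highest mean, and genes whose mean reached the 40th percentile of all probe sets were kept. That level was a log2 intensity of 5.40 and is called the dim limit below. Of 12384 named genes, 8031 were kept and tested.

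The cells came from back skin of female CD1/C57BL/6 mice at about postnatal day 60 and were sorted for YFP, integrin α6 and CD34. Both genotypes had mid-dorsal hair waxed off 48 h before harvest, according to the treatment label. Each genotype has one array numbered set 1 and one numbered set 2. A further label calls both set 1 samples quiescent and both set 2 samples activated, and the labels do not settle how this fits with the depilation, so the sets are named by number. The sources used here do not name the Cre line behind the knockout, and nothing says that the arrays of a genotype are from separate animals. The p-values of limma thus reflect only how far these samples vary, and that variation may be technical. An exact permutation test of 2 arrays against 2 cannot give a p below 0.333, so no single gene can be tested in that way.

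Tbx1 encodes a transcription factor with a T-box DNA-binding domain, known from pharyngeal and ear development and expressed in the hair follicle bulge. The bulge is the niche in which hair follicle stem cells rest between growth cycles. There they are held by bone morphogenetic protein (BMP) and other quiescence signals, and they divide when a new cycle begins or after hair plucking. Affymetrix arrays measure the sum of RNA from all cells that passed the sort. In such bulk RNA fewer cells of a type and less RNA per cell cannot be told apart.

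The sorted cells carried the defining genes of bulge cells on every array. The stem cell keratin gene Krt15 read between 13.39 and 13.94 and the basal keratin gene Krt14 between 13.86 and 14.08 on the log2 scale. Sox9, Lhx2, Lgr5, Nfatc1 and Tcf7l1 lay between 8.54 and 11.44 on all 4 arrays. Cd34 differed by 0.39 between genotypes and Itga6 by 0.24, with limma adjusted p of 0.412 and 0.662. Median log2 intensity over all probe sets lay between 6.36 and 6.38. The WT set 2 array stood apart in the nuclear RNA Malat1 (12.35, against 9.80 to 10.56 on the others). The cKO set 1 array had the largest excess of 3′ over 5′ signal for β-actin (1.68, against 1.09 to 1.18). The part of these 2 arrays in the values below was not tested. For most lists, medians between the arrays outside both of them, cKO set 2 and WT set 1, are given with the group or at the end. Some that differ from the group's median in size or sign are given only at the end. Those medians mix genotype with set.

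Tbx1 itself read 9.54 in set 1 and 8.88 in set 2 of cKO, and 10.53 and 10.37 in WT. Both knockout arrays lay below both WT arrays, as they did for 1597 of all genes tested. The difference was -1.24 (SE 0.25), and limma did not call it over the 8031 genes (adjusted p = 0.172) but did with a block for the set (adjusted p = 0.0424). Over all 22626 probe sets limma called it neither without the block (adjusted p = 0.335) nor with it (0.298). The sources used here do not say whether this probe set lies in the deleted stretch.

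To show the sequence level at which a T-box factor could meet some of these genes, promoters were searched for the T-box half-site GGTGTGA on both strands, in the 250 bases before and 50 after each RefSeq start. It occurs in 4.16% of the 6542 tested genes with a promoter in the table, in 6.70% of the 194 genes at least 1.5-fold higher in cKO within both sets and in 5.94% of the 101 at least 1.5-fold lower. In all 32851 promoters of the table the share is 3.98%. A match is a description of letters, not a binding site. The stretches below show 4 of the matches, each at least 1.5-fold different within both sets and upstream of the start, with the half-site in capitals (assembly GRCm38.p6, 5′ to 3′ on the strand of the gene). Selp encodes an endothelial adhesion receptor, Ackr1 a chemokine-binding receptor of venules, Stat5a a cytokine-activated transcription factor and Ifi35 an interferon-induced protein.
Selp, chr1:164115104-164115160, plus strand: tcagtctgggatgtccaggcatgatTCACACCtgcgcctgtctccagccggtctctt
Ackr1, chr1:173333552-173333608, minus strand: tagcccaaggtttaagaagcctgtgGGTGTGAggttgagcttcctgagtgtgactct
Stat5a, chr11:100859571-100859627, plus strand: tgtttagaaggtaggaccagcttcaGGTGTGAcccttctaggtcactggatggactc
Ifi35, chr11:101448193-101448249, plus strand: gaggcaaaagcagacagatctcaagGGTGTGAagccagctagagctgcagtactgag

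Differences between the genotypes were mostly of modest size and ran in both directions. limma called 2 genes higher in cKO (0.0249% of genes tested) and 5 lower (0.0623%) at an adjusted p under 0.05. With the set as a block it called 53 higher (0.66%) and 30 lower (0.374%). Leaving out any 1 array changed which genes were called without the block. Such a fit rests on 1 array of a genotype. Without any test, 244 genes were at least 1.5-fold higher within both sets (3.04%) and 132 at least 1.5-fold lower (1.64%). A further 13 (0.162%) differed by that much in opposite directions. Any positive difference within both sets was seen for 35.8% of genes and any negative one for 27.9%, and these shares are the background for the counts of every functional list below. The median difference over all genes tested was 0.03.

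**Figure D1:**
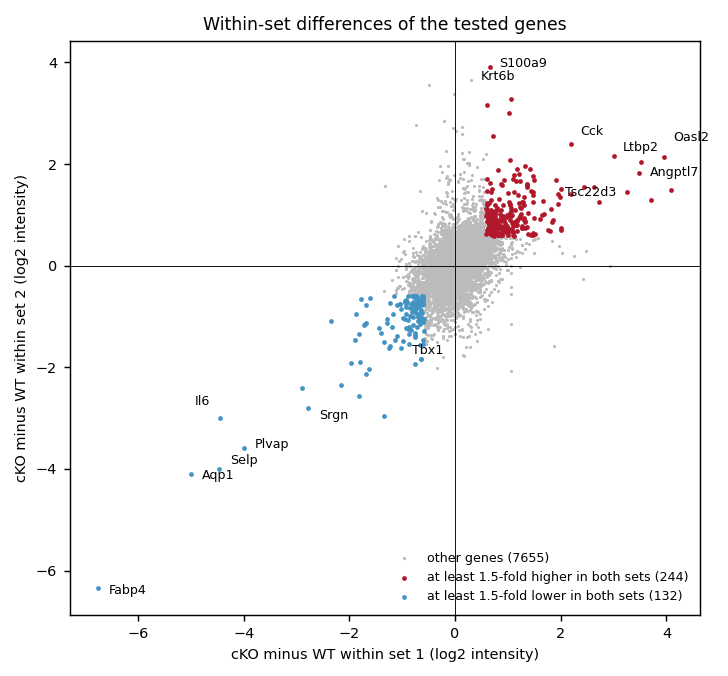
Difference between cKO and WT (log2 intensity) within set 1 on the horizontal axis and within set 2 on the vertical axis, one point per gene tested. Red points are the 244 genes at least 1.5-fold higher within both sets, blue points the 132 at least 1.5-fold lower, and grey points all others. Fabp4 and Aqp1 lie far to the lower left, and S100a9 and Krt6b are high in set 2 with smaller values in set 1.

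The 7 genes that limma called are known from cells other than keratinocytes or from hormone responses. Of the 5 that fell, the fatty acid carrier gene Fabp4 fell by 6.55 on the log2 scale and read 3.38 and 4.07 in cKO against 10.13 and 10.42 in WT. Aqp1, a water channel gene of endothelium and erythrocytes, fell by 4.55 and read 4.07 and 4.14 against 9.07 and 8.24. The others were Selp, Plvap, which forms the diaphragms of endothelial fenestrae, and the granule proteoglycan gene Srgn. All 5 lay below the dim limit on both cKO arrays and were kept for the test through their WT levels. Their calls therefore carry no weight, and their p-values are not used. Their folds were also computed against the dim limit. On that basis Fabp4 was at least 29.5-fold lower, Aqp1 at least 9.54-fold, Selp at least 6.82-fold, Plvap at least 6.20-fold and Srgn at least 4.26-fold lower. Tsc22d3 lost its call without any 1 of the 4 arrays, Cck without cKO set 1 or either WT array, Selp and Srgn without either WT array and Fabp4 without WT set 2. The 2 genes that rose were Cck, for the peptide hormone cholecystokinin, and Tsc22d3, a glucocorticoid-induced leucine zipper gene, described with its list below. Cck read 7.25 and 7.17 in cKO against 5.05 and 4.77 in WT, both of the latter below the dim limit. It was thus at least 3.51-fold higher. Cck was kept for the test through its cKO levels, so its call carries no weight either.

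Genes of blood vessel endothelium were present at low level in WT and lower in cKO. Of 26 endothelial genes on the array, 16 and 15 lay above the dim limit on the WT arrays of set 1 and set 2, and 6 and 5 on the cKO arrays. Their summed linear intensity was 2351 and 2019 in WT and 803 and 781 in cKO. The genes Pecam1, Cldn5, Kdr, Tek, Tie1, Erg, Cd93, Robo4, Sox17 and Sox18 lay below the limit on all 4 arrays. Their differences ran from -1.47 for Tek to 0.08 for Cldn5. Among genes not kept, Vwf, Emcn, Sele, Ptprb and Icam2 lay above the limit on both WT arrays and below it on both cKO arrays. Vwf read 7.24 and 6.30 in WT and 2.96 and 3.18 in cKO. Only 10 of the 26 were kept for the test, several of them through WT alone, so their count carries no weight. Ramp2, a receptor partner of adrenomedullin signalling, read 6.25 and 6.36 in cKO against 7.66 and 7.69 in WT. The 2 genotypes did not overlap, and the difference of -1.37 passed limma's test with the set as a block (adjusted p = 0.0239) and not without it (0.079). Ackr1 read 6.03 and 5.33 against 7.83 and 7.23, Ctla2a 4.97 and 4.27 against 7.13 and 6.61, and the junction gene Esam 5.33 and 5.29 against 6.62 and 6.34. Ctla2a and Esam lay below the dim limit on both cKO arrays. Both were kept through their WT levels, so their p-values are not used. Ackr1 passed limma's test only with the block (adjusted p = 0.0102). The vascular endothelial growth factor receptor gene Flt1 differed by -0.26.

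Among markers of other cell types, single genes were unequal. Probe sets for genes of fat cells summed to 1795 and 1906 in WT and 655 and 716 in cKO, and that gap came from Fabp4. Of 13 such genes, 4 and 4 lay above the dim limit in WT and 4 and 3 in cKO. The 4 kept for the test had a median difference of 0.03. The fat cell genes Adipoq, Cidec, Lep, Lipe, Pparg, Plin4, Retn and Aqp7 lay below the dim limit throughout. For leukocyte genes the sums were 5554 and 5621 in WT and 5119 and 5186 in cKO, with the pan-leukocyte gene Ptprc among 18 of 27 genes below the limit on all arrays. Cd14, an endotoxin coreceptor of myeloid cells, read 5.42 and 5.23 in cKO against 7.13 and 6.38 in WT, a difference of -1.43. Its cKO mean of 5.32 lay below the dim limit. Cd14 was thus kept through its WT levels, so its p-values are not used. The fibroblast genes Col1a1, Col3a1, Pdgfra and Lum lay below the limit on all arrays. Among tested members of that list Vcan, a matrix proteoglycan gene, differed by -1.44 and Thy1, a surface glycoprotein gene, by 1.46. Both passed limma's test only with the set as a block (adjusted p = 0.0239 and 0.0211). A probe set shared by the haemoglobin genes Hba-a1 and Hba-a2 differed by -1.43 and one shared by Ly6c1 and Ly6c2 by -1.04, and limma called neither. The part of such cells in other results was not tested.

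Cytokine genes did not move as one group. Of 39 on the array, 19 were kept, and 10 of these were higher and 6 lower within both sets. Il6, a cytokine gene induced by tissue damage, read 4.77 and 6.39 in cKO against 9.21 and 9.38 in WT. The levels did not overlap, and the difference of -3.72 passed limma's test with the set as a block (adjusted p = 0.00867) and not without it (0.0857). Csf3, the granulocyte colony-stimulating factor gene, read 4.71 and 4.97 against 6.40 and 5.75, with both cKO arrays below the dim limit. Lrg1, a secreted leucine-rich glycoprotein gene of inflamed endothelium, read 4.99 and 4.34 in cKO against 7.88 and 6.75 in WT. Both cKO arrays were below the dim limit, and against that limit it was at least 3.77-fold lower. In the other direction Cxcl12, the ligand of the receptor CXCR4, read 10.67 and 10.35 in cKO against 9.04 and 9.34 in WT (1.32, adjusted p = 0.0434 with the block and 0.112 without). A second probe set of Cxcl12 differed by 0.50. Csf1, the macrophage colony-stimulating factor gene, differed by 0.90, while a dimmer probe set of it differed by 0.16. The chemokine gene Ccl20 differed by -0.20 in set 1 and 2.85 in set 2. Of 16 kept NF-κB target genes, 7 were higher and 2 lower within both sets (median 0.23).

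Tsc22d3 led a list of genes known to respond to glucocorticoid, the steroid hormone signal that restrains proliferation and inflammation in skin. Of 26 such genes on the array 22 were kept, and 16 were higher and 1 lower within both sets. Their median difference was 0.43, at 0.35 in set 1 and 0.43 in set 2, and 0.51 between cKO set 2 and WT set 1. Tsc22d3 read 10.51 and 10.29 in cKO and 8.60 on both WT arrays, and it rose by 1.80 (limma adjusted p = 0.0479). Its least bright probe set differed by 0.40. Txnip, an inhibitor of thioredoxin that also limits glucose uptake, read 11.41 and 10.82 against 9.55 and 9.92. The transcription factor gene Klf15, a direct glucocorticoid target in muscle, read 7.07 and 6.73 against 6.24 and 5.42. Neither gene passed limma's test without the block or with it (Txnip, adjusted p = 0.162 and 0.0632; Klf15, 0.256 and 0.0615). For both genes the cKO arrays lay above the WT arrays, as they did for 2145 of all genes tested. Dusp1, a phosphatase gene that switches off MAP kinases, differed by 0.87.

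Other genes with a hormone link differed little or were lower. The classical target genes Sgk1 and Fkbp5, for a kinase and for a chaperone of the receptor, differed by 0.06 and 0.09. Fkbp5 was lower in set 1 (-0.21) and higher in set 2 (0.39). Hsd11b2, whose enzyme inactivates glucocorticoid, read 6.70 and 6.76 in cKO against 8.51 and 8.10 in WT (-1.58, limma adjusted p = 0.0232 with the set as a block and 0.079 without). The glucocorticoid response element, searched as GNACA, any 3 bases and TGTNC, occurs in 3 of the 18 listed genes with a promoter (16.7%). Its share is 0.515% of the 194 genes at least 1.5-fold higher, 1.98% of the 101 lower and 0.397% of all tested genes with a promoter. Txnip holds one of the 3 matches, printed here because its expression difference was the second largest of the list.
Txnip, chr3:96557760-96557822, plus strand: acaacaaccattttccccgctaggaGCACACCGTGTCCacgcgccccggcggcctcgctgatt
The capitals mark the match, in GRCm38.p6 and 5′ to 3′.

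Circadian clock genes, p53 target genes and genes of autophagy and lysosomes had positive medians in both sets. Of 15 kept clock genes, 11 were higher and 1 lower within both sets (median 0.35). Dbp, an output factor of the clock, read 8.35 and 7.10 in cKO against 6.84 and 6.48 in WT, and the related gene Tef 8.81 and 7.94 against 7.81 and 7.34. The cKO arrays lay above the WT arrays for both genes, as they did for 2145 of all genes tested. The core activator gene Arntl and the nuclear receptor gene Rora also had positive values, of 0.57 and 0.67, whereas the repressor gene Cry1 differed by -0.19. The sources used here do not give the hour of harvest.

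Of 22 kept p53 pathway genes, 16 were higher and 1 lower within both sets. Their median was 0.31, and 0.11 between cKO set 2 and WT set 1. The cell cycle inhibitor gene Cdkn1a read 11.48 and 11.26 in cKO against 10.79 and 9.96 in WT. Trp53inp1, an autophagy-promoting p53 target, read 11.51 and 11.48 against 10.13 and 10.86. Sesn1, an antioxidant p53 target that restrains growth signalling, read 10.82 and 10.98 against 9.89 and 10.08, and its other probe sets each differed by 0.50. None of the 3 passed limma's test, with adjusted p of 0.262 for Cdkn1a, 0.237 for Trp53inp1 and 0.162 for Sesn1. Foxo3, a transcription factor gene of resting stem cells, differed by 0.96, and the mitophagy receptor gene Bnip3 by 0.91.

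Of 34 autophagy and lysosome genes kept, 21 were higher and 2 lower within both sets (median 0.18). The cathepsin gene Ctsh read 9.48 and 9.38 in cKO against 8.27 and 8.14 in WT, so the sets gave nearly the same gap. Its difference of 1.23 had a limma adjusted p of 0.0296 with the set as a block and 0.0857 without. The lysosomal channel gene Mcoln1 and the cholesterol carrier gene Npc2 differed by 0.54 and 0.50. Atg5, needed to form autophagosomes, differed by -0.27.

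Matricellular proteins, which sit in the extracellular matrix and tune adhesion and growth factor activity without building fibres, were nearly all higher in cKO. Of 24 on the array 16 were kept, and 15 of these were higher within both sets and 0 lower. The median difference was 0.54, at 0.63 in set 1, 0.49 in set 2 and 0.53 between cKO set 2 and WT set 1. Thbs2, a thrombospondin gene, read 7.87 and 7.43 in cKO against 6.40 and 5.66 in WT. Ccn2, the connective tissue growth factor gene, read 13.92 and 13.01 against 11.98 and 11.80. Both passed limma's test with the set as a block (Thbs2, 1.62, adjusted p = 0.0205; Ccn2, 1.58, adjusted p = 0.0298) and not without it (0.162 and 0.172). Sparc, a collagen-binding protein gene, read 10.64 and 10.48 against 9.47 and 9.68. For all 3 genes the lower cKO array was above the higher WT array, as it was for 2145 of all genes tested. Egfl6, a basement membrane ligand gene of the upper bulge, was the exception and differed by 0.41 in set 1 and -0.43 in set 2.

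Collagens and other interstitial matrix genes were split. Of 22 kept, 10 were higher and 8 lower within both sets. Ltbp2, a microfibril-associated protein gene, read 8.68 and 7.25 in cKO against 5.67 and 5.09 in WT, a difference of 2.58. Its WT mean lay below the dim limit. Ltbp2 was thus kept through its cKO levels, so its p-values are not used. The collagen VI gene Col6a1 read 9.26 and 8.95 against 7.97 and 8.03, with a limma adjusted p of 0.126, or 0.0503 with the block. On the other side were Fn1, for fibronectin, and Col14a1, a collagen gene of fibril surfaces. Fn1 read 7.31 and 6.93 against 8.51 and 8.14, and Col14a1 7.21 and 7.36 against 9.11 and 8.82. Their differences of -1.20 and -1.68 passed with the block (adjusted p = 0.0304 and 0.0211) and not without it (0.162 and 0.0741). Vim, the mesenchymal intermediate filament gene, read 7.24 and 6.66 against 8.93 and 8.80 (-1.91, adjusted p = 0.0142 with the block and 0.079 without).

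Basement membrane genes lay on both sides. Col7a1, the collagen of anchoring fibrils, read 9.76 and 9.30 in cKO against 8.51 and 8.28 in WT. Its difference of 1.13 had a limma adjusted p of 0.0405 with the set as a block and 0.167 without. Col17a1, a transmembrane collagen of hemidesmosomes, read 13.20 and 12.81 against 12.27 and 12.11, and Lamb3, a laminin chain gene, 10.83 and 10.68 against 10.07 and 9.82. Neither passed either test. The lowest values belonged to chains of laminin and collagen IV, which form the sheet itself, with -0.56 for Col4a1, -0.50 for Lama5 and -0.33 for Lamc1. In all, 10 of 18 kept genes were higher and 5 lower within both sets.

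Of 16 kept matrix protease and inhibitor genes, 4 were higher and 2 lower within both sets (median 0.08). Among secreted proteases, Htra1, a serine protease gene, read 11.73 and 11.32 in cKO against 10.31 and 9.43 in WT (1.65, adjusted p = 0.0211 with the block in limma and 0.172 without). The gelatinase gene Mmp2 had differences of 2.00 and 0.70 in set 1 and set 2, and the inhibitor gene Timp2 by 0.83, and its other probe sets by 0.18 to 0.71. Mme, a membrane peptidase gene, read 5.18 and 6.12 in cKO against 7.14 and 8.04 in WT (-1.94, adjusted p = 0.00867 with the block and 0.186 without). The plasminogen activator gene Plat differed by -0.82.

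**Figure D2:**
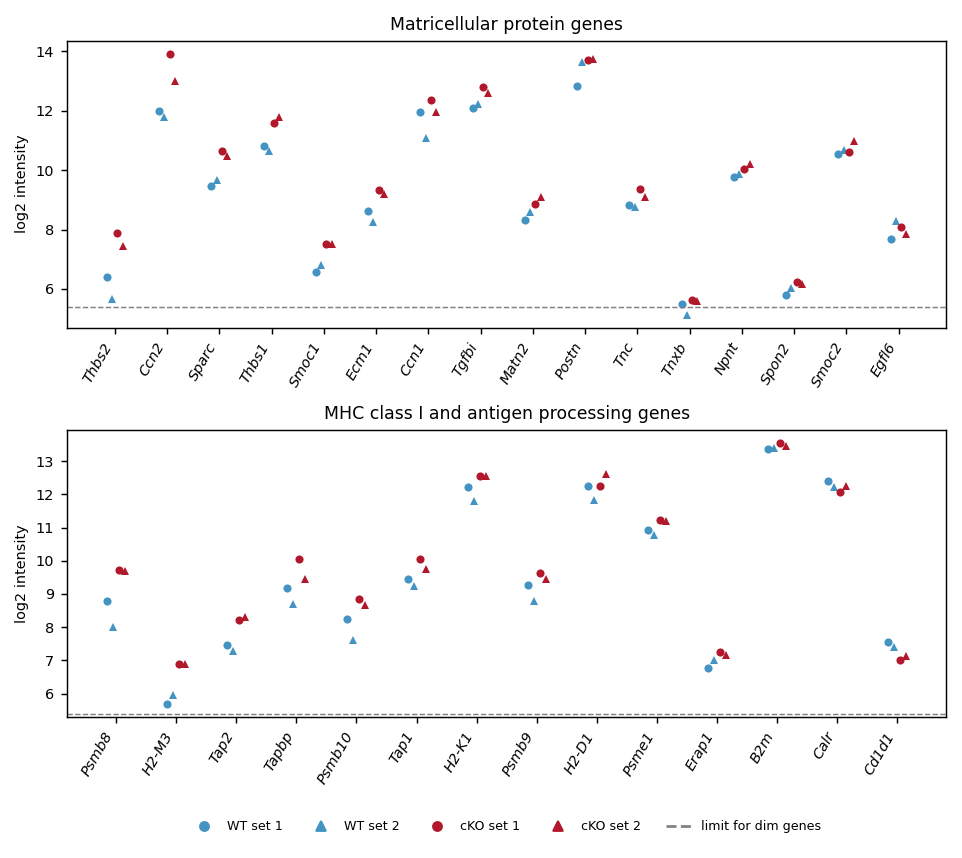
Log2 intensity on each array of the 16 matricellular genes kept (upper panel) and the 14 kept genes of MHC class I and antigen processing (lower panel), ordered by their mean difference. Colours mark genotype (WT blue, cKO red), symbols mark the set, and the dashed line is the dim limit. Thbs2 and Ccn2 show the widest gaps above, and Psmb8 and H2-M3 below, whereas B2m and Egfl6 overlap or nearly so.

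Genes that load peptides on MHC class I molecules, by which cells show their contents to T cells, were mostly higher in cKO. All 14 on the array were kept, and 11 were higher and 1 lower within both sets. The median was 0.52, at 0.42 in set 1, 0.71 in set 2 and 0.31 between cKO set 2 and WT set 1. Psmb8, a subunit of the interferon-inducible immunoproteasome, read 9.72 and 9.70 in cKO against 8.79 and 8.01 in WT. H2-M3, a nonclassical class I gene, read 6.91 and 6.89 against 5.69 and 5.95, and Tap2, a subunit of the peptide transporter, 8.22 and 8.32 against 7.46 and 7.27. The cKO arrays lay above the WT arrays for all 3, as they did for 2145 of all genes tested. None of the 3 passed limma's test (adjusted p from 0.125 to 0.186, or from 0.0503 to 0.0774 with the block). The light chain gene B2m, the brightest of the list, differed by 0.11. Cd1d1, which presents lipids, differed by -0.41, and the loading chaperone gene Calr by -0.16. Complement and coagulation genes were likewise mostly higher, with 10 of 13 kept genes higher and 2 lower within both sets and a median of 0.42, which was 0.26 between cKO set 2 and WT set 1. Thbd, the thrombomodulin gene, differed by 1.15, and the anticoagulant gene Pros1 by 0.85.

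Interferon is known to induce many of these genes. Of 26 interferon response genes on the array 17 were kept, and 16 of these were higher within both sets and 1, Ifit2, was lower. The kept genes include Ifit1, which passed the filter through its cKO levels, so that count carries no weight. The interferon-stimulated response element, searched on both strands as GAAA, any 2 bases and GAAA again, occurs in 7 of the 13 listed genes with a promoter (53.8%), in 9.28% of the 194 genes at least 1.5-fold higher, in 3.96% of the 101 lower and in 3.85% of all tested genes with one. The 4 stretches show promoters with paired matches in genes at least 1.5-fold higher within both sets. Capitals mark the matches, which overlap in Oas1a, Bst2 and Irgm1 and stand apart in Ifit1 (GRCm38.p6, 5′ to 3′ on the strand of the gene).
Oas1a, chr5:120907526-120907570, minus strand: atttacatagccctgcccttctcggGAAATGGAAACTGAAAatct
Bst2, chr8:71537562-71537627, minus strand: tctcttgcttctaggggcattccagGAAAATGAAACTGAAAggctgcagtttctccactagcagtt
Irgm1, chr11:48871421-48871475, minus strand: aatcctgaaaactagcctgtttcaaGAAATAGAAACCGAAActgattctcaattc
Ifit1, chr19:34640760-34640838, plus strand: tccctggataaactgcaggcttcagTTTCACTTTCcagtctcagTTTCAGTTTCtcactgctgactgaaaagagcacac
Oas1a, an antiviral synthetase gene, read 10.17 and 8.20 in cKO against 7.54 and 6.65 in WT. Bst2, which tethers virus particles, read 7.27 and 6.25 against 5.94 and 5.38. Irgm1, an immunity GTPase gene, read 8.33 and 7.36 against 6.67 and 6.08. Ifit1 read 8.78 and 6.17 against 5.06 and 4.88, with both WT arrays below the dim limit. The cKO set 1 array was the highest for all 4 genes. With the block, limma's adjusted p was 0.0239 for both Oas1a and Irgm1.

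Genes of RNA processing and ribosome assembly were lower by small amounts, while cytosolic ribosomal protein genes lay near zero. Of 49 splicing factor and hnRNP genes kept, 41 were lower within both sets and 0 higher, with a median of -0.25 (-0.21 in set 1, -0.30 in set 2). Ribosome biogenesis genes, which make and modify ribosomal RNA, were lower within both sets for 28 of 37 and higher for 1 (median -0.23). For aminoacyl-tRNA synthetases, which charge tRNAs with amino acids, the counts were 12 lower and 1 higher of 18 (median -0.27). Proteasome subunits had 20 lower and 2 higher of 31 (median -0.20), and mitochondrial ribosome and import genes 23 lower and 2 higher of 37 (median -0.16). By contrast, 43 cytosolic ribosomal protein genes had a median of 0.01, with 16 higher and 9 lower, and the 71 respiratory chain genes a median of -0.01, with 20 on each side. None of these genes passed limma's test with or without the block. Between cKO set 2 and WT set 1 the medians were -0.31 for splicing, -0.31 for ribosome biogenesis, -0.28 for synthetases and 0.02 for ribosomal proteins.

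Single members of these lists show how small the steps were. Nop56, a core protein of the particles that methylate ribosomal RNA, read 10.01 and 9.90 in cKO against 10.53 and 10.56 in WT. Srsf10, a splicing regulator gene, read 9.63 and 9.48 against 9.99 and 10.49, and its other probe sets differed by -0.74, -0.68 and -0.43. Hnrnph1 read 11.03 and 10.92 against 11.28 and 11.86. All 3 had both cKO arrays below both WT arrays, as did 1597 of all genes tested, and limma's adjusted p lay between 0.236 and 0.335. Psmc4, an ATPase of the proteasome, differed by -0.52, Mrpl18, of the mitochondrial ribosome, by -0.65, and the alanyl-tRNA synthetase gene Aars by -0.44. Qars, the glutaminyl-tRNA synthetase gene, went the other way with 0.38 and Polr1c, a subunit of RNA polymerases I and III, with 0.19, although second probe sets of both were slightly negative in set 1 (-0.05 for Qars and -0.08 for Polr1c). The cap-binding translation factor gene Eif4e differed by -0.48. Cox7c of the respiratory chain differed by 0.20 in set 1 and -1.60 in set 2, with its high value on the WT set 2 array (7.93, against 6.31 to 6.52).

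**Figure D3:**
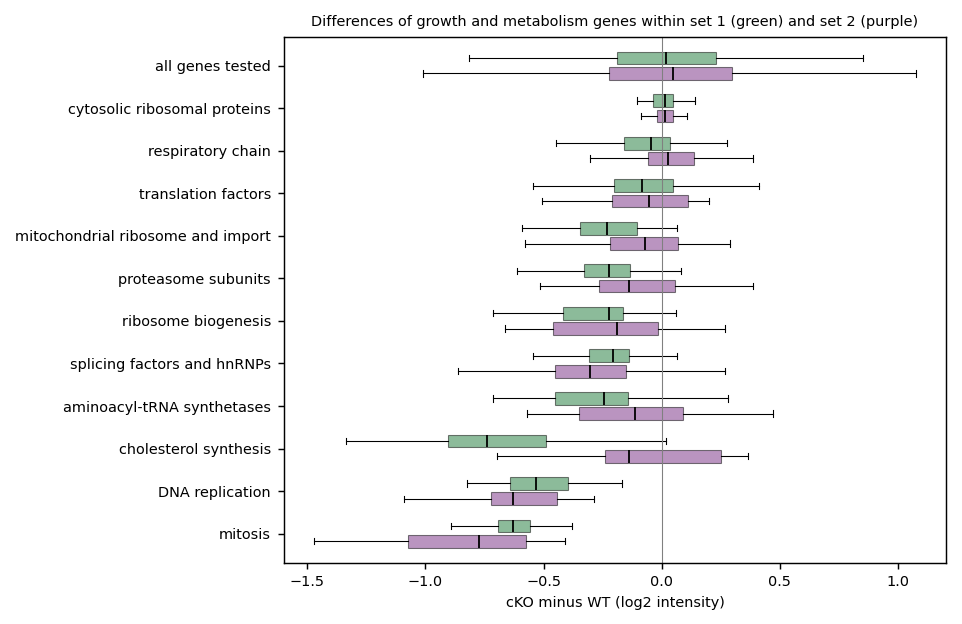
Spread of the cKO minus WT difference (log2 intensity) over the genes of each list, within set 1 (green) and set 2 (purple). Boxes span the quartiles, the bar is the median and whiskers reach the farthest gene within 1.5 box lengths, with genes beyond them not drawn. Ribosomal protein genes sit at zero with little spread, splicing and ribosome biogenesis genes lie left of it in both sets, and mitosis genes lie farthest left.

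Genes of cell division were lower throughout. All 27 kept mitosis genes and all 24 kept replication genes were lower within both sets, with medians of -0.68 and -0.60. Chromatin genes that accompany replication went with them. Hells, a remodelling helicase gene needed for DNA methylation, read 9.12 and 9.20 in cKO against 9.87 and 10.52 in WT. Ezh2, the Polycomb methyltransferase gene of dividing cells, read 9.37 and 9.46 against 9.88 and 10.16. Its counterpart of resting cells, Ezh1, had the opposite sign and read 7.85 and 7.58 against 7.38 and 7.14. None of the 3 passed limma's test (adjusted p = 0.219, 0.261 and 0.352). Of 25 kept Polycomb, DNA methylation and chromatin writer genes, 12 were lower and 5 higher within both sets. The motif TTTGAA, known as the cell cycle genes homology region, occurs in 18 of the 23 mitosis genes with a promoter (78.3%), in 26.7% of the genes at least 1.5-fold lower, in 12.4% of those higher and in 13.7% of all tested genes with one. CCAAT occurs in 78.3% of the mitosis genes and in 42.6% of all tested genes with a promoter.

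Lipid genes divided into synthesis and oxidation. Of 25 listed cholesterol synthesis genes 19 were on the array and kept, and 13 of these were lower and 2 higher within both sets. Their median of -0.44 was larger in size in set 1 (-0.74) than in set 2 (-0.14), a difference that was not tested. Stard4, a sterol carrier gene, read 6.42 and 7.18 in cKO against 7.76 and 7.67 in WT, with a second probe set at -0.56. Idi1, an isomerase gene of the pathway, read 9.80 and 9.83 against 10.75 and 10.52, and Fdps, the farnesyl diphosphate synthase gene, 9.10 and 9.24 against 10.29 and 9.53. All 3 had both cKO arrays below both WT arrays, as did 1597 of all genes tested, and none passed limma's test (adjusted p from 0.174 to 0.325). Ebp, an isomerase gene later in the pathway, differed by 0.29. Genes of fatty acid uptake and oxidation had 11 of 16 kept members higher and 2 lower within both sets (median 0.43). Acadvl, which starts the oxidation of long chains, read 9.89 and 9.66 against 9.21 and 8.97, and Eci1, an isomerase for unsaturated chains, differed by 0.60. Hadha, a trifunctional protein subunit, differed by -0.28. Cd36, a fatty acid receptor that endothelium and fat cells also express, read 4.41 and 4.34 against 6.22 and 6.90, with both cKO arrays below the dim limit, and was at least 2.24-fold lower against that limit.

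Enzymes of retinoid metabolism were led by Adh7, an alcohol dehydrogenase gene that oxidises retinol. It read 10.46 and 10.29 in cKO against 8.97 and 8.61 in WT, a difference of 1.59 that passed limma's test with the set as a block (adjusted p = 0.0205) and not without it (0.079). The retinoic acid carrier gene Crabp2 read 7.56 and 7.88 against 7.06 and 6.17, and the retinol dehydrogenase gene Rdh12 differed by 0.77, while its second probe set differed by -0.15 in set 1. The receptor genes Rarg and Rara differed by 0.07 and -0.12, and a dim second probe set of Rarg by -0.22. Of 22 list genes on the array 11 were kept, and 7 were higher and 1 lower within both sets. Mthfd2, a mitochondrial enzyme gene of one-carbon metabolism that is high in dividing cells, read 7.43 and 7.54 against 8.73 and 8.66 (-1.21, adjusted p = 0.0305 with the block and 0.0857 without), and a second probe set differed by -0.56. In glycolysis 8 of 16 kept genes were higher and 3 lower within both sets (median 0.27, but 0.08 between cKO set 2 and WT set 1), with 0.66 for Aldoc and 0.62 for Hk1 and -0.41 for Pkm.

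Stress genes did not respond as one programme. The heat shock list had a median of -0.05, and of 0.13 between cKO set 2 and WT set 1, with 8 of 21 genes higher and 8 lower within both sets, and its small and large chaperones stood at opposite ends. The small heat shock protein genes Hspb8, Cryab and Hspb1 had the largest positive values. Hspb8 read 10.98 and 10.96 in cKO against 9.98 and 9.52 in WT, Cryab 8.28 and 7.80 against 7.23 and 6.73, and Hspb1 13.06 and 13.22 against 12.45 and 12.50. With the set as a block limma's adjusted p was 0.0405, 0.046 and 0.119. The HSP90 gene Hsp90aa1, its cochaperone gene Stip1 and the HSP110 gene Hsph1 had the lowest values, of -0.41, -0.42 and -0.47. Of 27 endoplasmic reticulum stress genes 10 were higher and 8 lower, with -0.60 for the chaperone gene Hsp90b1 and 0.27 for the transcription factor gene Xbp1. Genes for glutathione, NRF2 targets and metallothioneins had 18 of 28 kept members higher and 4 lower (median 0.23), with 0.85 for the glutathione peroxidase gene Gpx2. The enzyme gene that begins glutathione synthesis, Gclc, read 8.70 and 8.50 against 9.24 and 9.31 (-0.68), and the NRF2 targets Txnrd1 and Gsr differed by -0.44 and -0.42. Among hypoxia genes Ndrg1 differed by 0.66, and the prolyl hydroxylase gene Egln3 by 0.72 in set 1 and 2.55 in set 2. Other probe sets of Ndrg1 differed by 0.65 and 0.69, positive in both sets, and by 0.35 and 0.28, negative in set 1.

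In BMP signalling the ligand and an immediate target were higher, and the list as a whole was near the background. Bmp2, a ligand, read 7.44 and 6.98 in cKO against 6.08 and 5.38 in WT. Gdf10, a distant member of the same ligand family, read 7.21 and 6.23 against 4.78 and 4.67, at least 2.50-fold higher when set against the dim limit. Id2, a direct target that blocks differentiation factors, read 11.27 and 11.10 against 10.02 and 9.96. Another probe set of Id2 differed by 1.32, and its dimmest by 0.52, with 1.25 in set 1 and -0.22 in set 2. Bmp2 and Id2 passed limma's test with the set as a block (adjusted p = 0.0211 and 0.0305) and not without it (0.172 and 0.0857). Gdf10 lay below the dim limit on both WT arrays and was kept through its cKO levels, so its p-values are not used. The target gene Msx2 and the antagonist gene Grem1 differed by -0.57 and -0.55. Over 29 kept BMP genes, 13 were higher and 8 lower within both sets (median 0.13, and 0.21 between cKO set 2 and WT set 1).

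Other signalling pathways were represented by single members. In the Notch pathway 11 of 20 kept genes were higher and 2 lower within both sets (median 0.17, but 0.06 between cKO set 2 and WT set 1). The ligand gene Dll1 read 7.46 and 6.45 in cKO against 6.18 and 5.70 in WT, and the receptor gene Notch3 7.42 and 6.69 against 6.66 and 5.95. Notch1 differed by 0.65, with a second probe set at 0.18, and the ligand gene Jag1 by -0.18. Within each set the cKO array was higher for Dll1 and Notch3, but the WT set 1 array came close to the cKO set 2 array of both genes. Of the growth factor genes Fgf1 differed by 1.37, Tgfa, a ligand of the epidermal growth factor receptor, by 1.10 and Pdgfc by 0.99, whereas Pdgfa, which bulge and germ cells send to the dermis, differed by -0.68. Spry1, which curbs receptor tyrosine kinase signals, read 8.83 and 7.91 against 7.59 and 6.75 (1.20, limma adjusted p = 0.0305 with the block and 0.297 without).

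Hedgehog and WNT genes showed no common direction. The Hedgehog receptor and target gene Ptch1 read 11.35 and 11.02 in cKO against 12.08 and 11.83 in WT, with a dim second probe set at -0.17, and the target Gli1 read 8.89 and 8.83 against 9.44 and 9.35. Both had cKO arrays below WT arrays, as did 1597 of all genes tested, and limma did not call them (adjusted p = 0.231 and 0.262). The coreceptor genes Boc and Gas1 differed by 0.84 and 0.53. Among WNT genes the ligands Wnt5b and Wnt10a differed by 0.83 and 0.78, the target Myc by 0.95 and the target Ccnd1, for cyclin D1, by -0.45. Of 30 kept WNT genes 15 were higher and 5 lower within both sets (median 0.09, and 0.05 between cKO set 2 and WT set 1). Ephrins and Eph receptors had 5 of 12 higher and 4 lower, and the guidance factor gene Slit3 differed by -0.85.

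Surface and secreted genes of the bulge were more often higher than lower. Of 37 kept, 23 were higher and 3 lower within both sets (median 0.34, with 0.49 in set 1 and 0.22 in set 2). Angptl7, a secreted angiopoietin-like protein gene, read 8.10 and 6.92 in cKO against 4.58 and 4.88 in WT. Set against the dim limit it was at least 4.32-fold higher. Angptl7 was kept through its cKO levels, so its p-values are not used. Bulge transcription factor genes were more evenly spread, with 9 of 21 higher and 3 lower. Gata6, known from the upper follicle and its duct, read 7.07 and 6.79 against 6.02 and 5.82, and Foxc1, needed to keep bulge cells at rest, 9.81 and 9.48 against 8.82 on both WT arrays. Lhx2, a stem cell maintenance factor, read 10.92 and 10.99 against 11.44 and 11.37. All 3 had non-overlapping arrays and failed limma's test (adjusted p from 0.162 to 0.314). Of all genes tested, 2145 were higher in cKO without overlap and 1597 lower. Krt15 differed by 0.51 and Krt17, a keratin of activated and outer root sheath cells, by -0.52. The simple epithelial keratin gene Krt7, below the dim limit on both WT arrays, was at least 2.24-fold higher against that limit. Krt7 was kept through its cKO levels, so its p-values are not used. The protease inhibitor gene Cst6 read 10.96 and 10.47 in cKO against 9.76 and 8.67 in WT. Cst6 passed limma's test with the block (adjusted p = 0.0285) and not without it (0.231).

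Channel genes included a pair of potassium channels that were higher in cKO. Of 15 kept ion channel genes, 9 were higher and 3 lower within both sets (median 0.19). Kcnk2, a potassium leak channel gene, read 7.93 and 7.54 in cKO against 5.92 and 6.03 in WT. Kcnh1, a voltage-gated potassium channel gene, read 7.26 and 7.51 against 6.24 on both WT arrays. Their differences of 1.76 and 1.14 passed limma's test with the set as a block (adjusted p = 0.0205 and 0.0404) and not without it (0.0741 and 0.105). The glycerol channel gene Aqp3 read 10.76 and 10.55 against 9.72 and 8.46, and Scnn1b, a subunit of the epithelial sodium channel, 5.95 and 5.94 against 7.10 and 6.54. Neither passed with or without the block. In junctions, 12 of 16 kept desmosome and adherens genes were higher and 1 lower within both sets (median 0.17), and the gap junction gene Gja1 differed by -0.40.

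**Figure D4:**
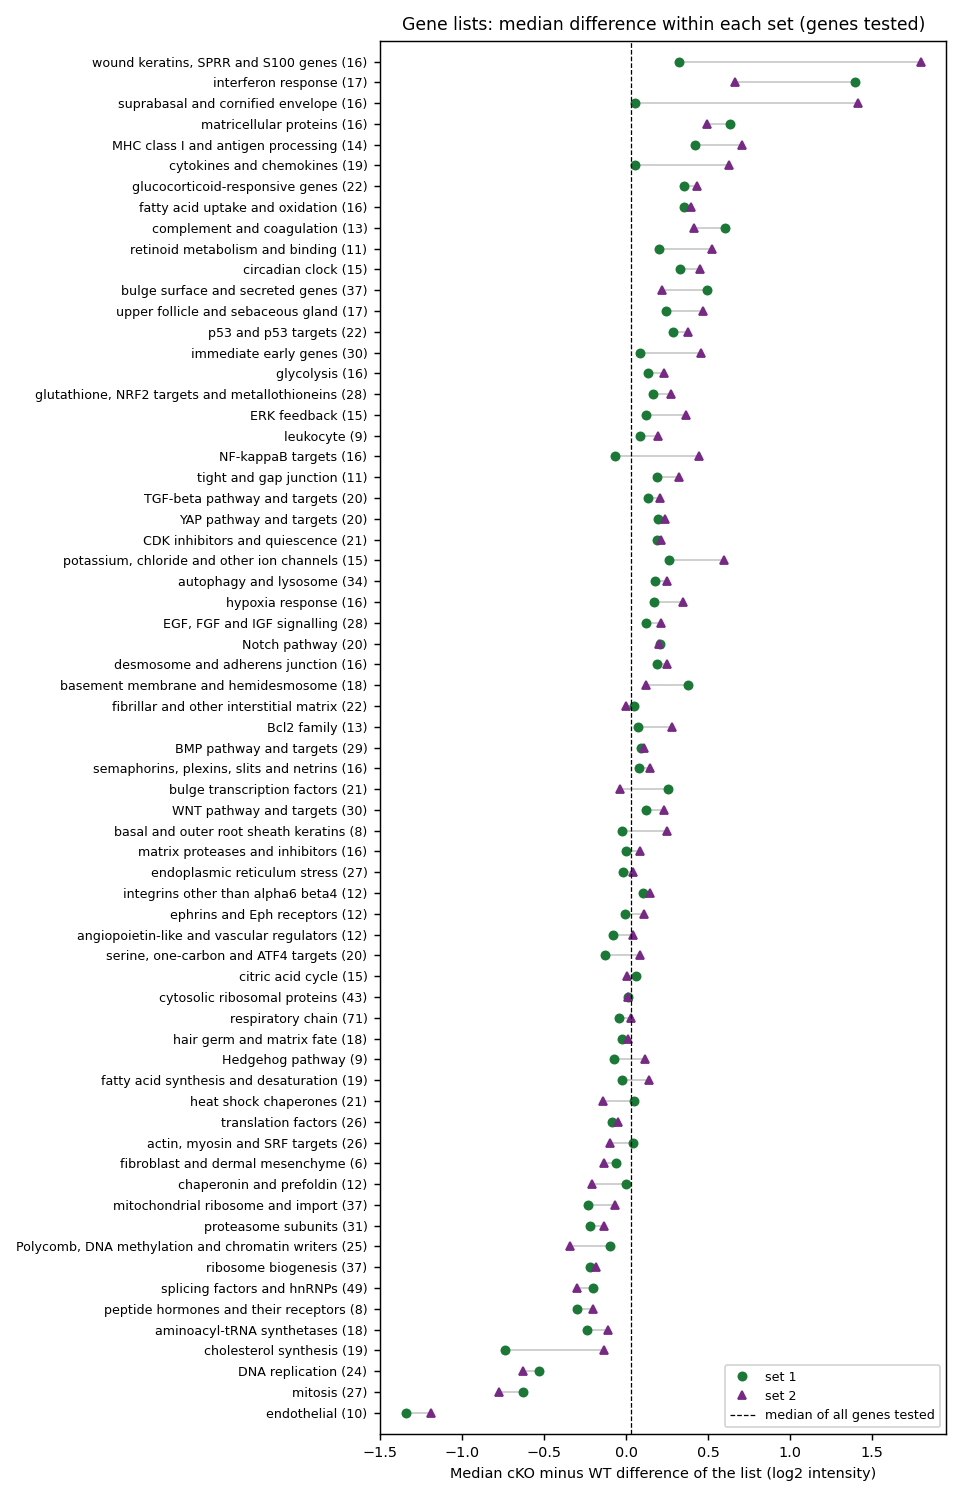
Median cKO minus WT difference (log2 intensity) of each list with 5 or more genes tested, within set 1 (green circles) and set 2 (purple triangles), with the number of genes in brackets. The dashed line is the median over all genes tested, 0.03. The points of a list lie close together for matricellular, glucocorticoid-responsive and splicing genes, and far apart for wound, suprabasal and cytokine genes.

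The functional lists differed in how far their medians moved from one set to the other, which was not tested. Suprabasal and cornified envelope genes had a median of 0.05 in set 1 and 1.41 in set 2, and wound keratin, SPRR and S100 genes 0.32 and 1.79. The reverse order was seen for interferon genes, with 1.39 and 0.66. Lists with nearly equal medians were fatty acid oxidation (0.35 and 0.39), autophagy and lysosome (0.18 and 0.25), Notch (0.20 and 0.20) and ribosome biogenesis (-0.22 and -0.19). Between cKO set 2 and WT set 1 the medians were 0.19 for suprabasal, 0.63 for wound and 0.66 for interferon genes, 0.25 for cytokines and 0.30 for NF-κB targets. On the same arrays they were 0.26 for clock, 0.21 for autophagy and lysosome, 0.35 for fatty acid oxidation, 0.20 for both the glutathione and the retinoid list, 0.31 for bulge surface and 0.11 for desmosome genes. They were -0.60 for cholesterol synthesis, -0.61 for mitosis, -0.74 for replication, -0.18 for proteasome and -0.23 for mitochondrial ribosome genes.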

How the data were processed

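RNA of 4 sorted cell samples was measured on Affymetrix mouse arrays with 22690 probe sets. RNA was extracted with Trizol, per the labels' protocols. The deposited values are linear intensity (5.29 to 25561), and RMA is named in the submitters' processing notes, whose version and settings the sources used here do not give. This method shares information across arrays and compresses dim signals. The log2 of the deposited intensity was computed here. The number of arrays limits the precision, and the scanner files were not used here.

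Of the probe sets, 20380 name 1 gene, 691 several, 1555 none and 64 are controls. Names come from the platform annotation, and 20351 identifiers were found in the RefSeq table with 0 symbols changed. The brightest probe set stands for a gene, and 4951 genes have several. Values of other probe sets are given for some genes, not for all that have them.

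Genotypes were compared over all 4 arrays with limma 3.58.1 in R 4.3.3, without a covariate, and p-values adjusted by Benjamini-Hochberg were called under 0.05. The script was tested on simulated data. A block for the set was tried as an alternative, since titles number both arrays of a set alike and descriptions give them one state. Deviations of same-numbered arrays correlated at 0.19 across 8031 genes, which are not independent replicates. Further alternatives were the dim filter, the probe set rule, normalization, an offset, the variance model, thresholds and leaving out arrays. Differences at the dim limit replace levels below it by the limit.

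The 72 gene lists, the motifs and the comparison were chosen with earlier results of these data known. Named genes were Tbx1, Cd34, Itga6, every gene limma called, the 12 per direction with the largest smaller within-set difference, up to 3 at either end of each list, genes at least 1.5-fold opposite in the sets, and cell type markers. Outside this rule, Arntl, Bst2, Fkbp5, Hsd11b2, Ifi35, Ifit1, Irgm1, Stat5a, Malat1 and Krt6b, with the bulge markers Krt14, Sox9, Lgr5, Nfatc1 and Tcf7l1, were chosen after their values were seen. Promoters are those of RefSeq, GRCm38.p6.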

Additional observations from a re-analysis of the deposited data

Results flagged for a closer look

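In 13 genes the genotypes differed by at least 1.5-fold in opposite directions in the sets. The difference between the sets was not tested, since a genotype by set term leaves no residual degrees of freedom. Lower in cKO in set 1 and higher in set 2 were the glutathione transferase gene Gsta4 (-0.75 and 2.77), the insulin-like growth factor carrier gene Igfbp3 (-1.32 and 1.57), the cornified envelope gene Lce1d (-0.67 and 1.47), the lipoxygenase gene Alox12e (-0.63 and 1.07), Mfge8 (-0.71 and 0.66) and Mlf1 (-0.76 and 0.59). Higher in set 1 and lower in set 2 were the peptide transporter gene Slc15a2 (1.88 and -1.58), Gdap10 (1.06 and -2.07), the nuclear RNA Neat1 (1.05 and -1.15), Rsrp1 (0.63 and -1.24), the transcription factor gene Zbtb20 (0.62 and -0.80), the autophagy gene Stx17 (0.70 and -0.71) and the tRNA deaminase gene Adat2 (0.61 and -0.68). Values are differences in log2 intensity.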

How the results depend on the processing

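Of the genes called by limma, 2 higher and 5 lower, a filter at the 60th percentile left 0 and 0, averaging the probe sets of a gene gave 1 higher, a variance trend with robust fitting gave 13 and 15, an adjusted p under 0.10 gave 19 and 20, and the set as a replicate block gave 53 and 30. Leaving out 1 array gave 0 to 10 higher and 2 to 6 lower. All 7 genes kept their call under both normalizations, the offset, the variance trend and the block. All but Tsc22d3 were kept for the test through the genotype in which they were higher. Genes at least 1.5-fold different within both sets, 244 higher and 132 lower, became 146 and 82 at the 60th percentile and 60 and 31 at 2-fold. The Tbx1 difference lay between -1.56 and -0.91 without 1 array. Of 179 genes named, other than Tbx1, 154 kept their sign under the alternatives run and 25 did not. After a second quantile normalization Egfl6 was 0.0068, Mfge8 0.0012 and Stx17 0.0045. With the mean of probe sets Rarg was -0.0748, Krt14 -0.0648, Nfatc1 -0.0238 and Slc15a2 -0.0969. Over the arrays left out in turn, values ran from -0.311 to 0.293 for Egfl6, -0.0789 to 0.25 for Fkbp5, -0.603 to 0.0474 for Hadha, -0.0955 to 0.244 for Rarg, -1.51 to 0.111 for Cox7c, -0.378 to 0.147 for Rara, -0.0019 to 0.115 for Sgk1, -0.0245 to 0.501 for Itga6, -0.0084 to 0.199 for Krt14, -0.238 to 0.149 for Lgr5, -2.17 to 0.149 for Malat1 and -0.165 to 0.224 for Nfatc1. For the 13 genes of opposite direction they ran from -0.718 to 0.648 (Adat2), -0.27 to 0.712 (Alox12e), -1.70 to 0.695 (Gdap10), -0.826 to 2.85 (Gsta4), -0.806 to 1.05 (Igfbp3), -1.14 to 1.93 (Lce1d), -0.469 to 0.417 (Mfge8), -0.583 to 0.412 (Mlf1), -0.855 to 0.763 (Neat1), -0.829 to 0.215 (Rsrp1), -0.822 to 1.12 (Slc15a2), -0.461 to 0.451 (Stx17) and -0.836 to 0.657 (Zbtb20). The cause was not tested. Of 66 lists with at least 5 tested genes, 12 medians changed sign under an alternative that keeps 4 arrays, 14 without 1 array and 9 between cKO set 2 and WT set 1. Levels below the dim limit give only a bound.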
